A study of Mus musculus with 6 samples.

Results

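The genes described here are 9 genes for secreted or surface proteins of the thrombospondin, SPARC, glypican and chordin-like families, known for the part that their products take in forming and tuning synapses. They are Thbs1, Thbs2, Thbs3, Thbs4, Sparcl1, Sparc, Gpc4, Gpc6 and Chrdl1, 9 of the 22180 genes that the array annotation names from probe sets with exactly 1 gene symbol. Each had 1 such probe set. Thbs4 was chosen by its measured difference between the groups, having drawn notice for its low values in transgenic lesions on these same arrays. The other 8 were added for what their products do. The difference of Thbs4 is therefore given as a description, and no test result for it below counts as support.

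Astrocytes secrete proteins that act on nearby neurons. Thrombospondins are large matrix glycoproteins that bind the calcium channel subunit encoded by Cacna2d1 and promote synapses that are structurally complete but lack working glutamate receptors. Sparcl1, also called hevin, links the presynaptic and postsynaptic membranes through adhesion proteins such as neuroligin, and its relative Sparc counters it. The glypicans encoded by Gpc4 and Gpc6 carry heparan sulfate and bring AMPA-type glutamate receptors to synapses, whereas Chrdl1, a secreted antagonist of bone morphogenetic proteins, promotes the switch to mature AMPA receptors. These roles are background and were not measured here.

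RNA was measured on 6 Affymetrix arrays, each holding total RNA of a macrodissected brain lesion. Wild type mice gave 3 lesions and mice carrying a transgene for the selective removal of GFAP+ astrocytes that do not divide gave the other 3. Mice of both genotypes were lesioned at 5 to 6 weeks of age with LPC, which destroys myelin where it is injected, received CID, the agent that sets off the ablation, 48 hours later, and were killed 7 days after the lesion. The arrays include no unlesioned tissue and no transgenic mice without CID, so an effect of the transgene alone and an effect of ablation cannot be told apart. The sources do not name the transgene's promoter or say whether each lesion came from its own animal, so a p-value here covers only the spread among these 6 lesions.

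All levels below are log2 intensities, where a step of 1 is a doubling, and all differences are transgenic minus wild type. The 6 arrays had median levels of 5.34 (transgenic replicate 2) to 5.59. The probe sets of transgenic lesions varied more, with a median SD of 0.26 against 0.15 in wild type. Transgenic replicate 2 held the highest value of 26.4% of probe sets and the lowest of 27.7%, and transgenic replicate 1 the highest of 24.7% and the lowest of 22.3%, more than any other array. Transcripts of the Y chromosome averaged 5.99 and 6.32 in transgenic replicates 1 and 3 and 2.78 to 3.39 on the other arrays, and Xist stood at 4.67 and 4.42 there against 9.14 to 9.49. The wild type lesions and transgenic replicate 2 thus had a female pattern, and sex partly followed genotype.

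Thbs4 was lower on every transgenic array than on any wild type array, and the groups of the remaining 8 genes overlapped. So 1 of 9 genes, the one chosen for its difference, had groups that did not overlap. This was so for 16.1% of all 41345 probe sets (7.6% lower and 8.54% higher in transgenic lesions). None of the 9 passed an adjusted p of 0.05 in limma, as did 0% of all probe sets, among which the smallest adjusted p was 0.213. A fit without moderated variances also called 0, while 3668 probe sets had an unadjusted p under 0.05, which is 8.87% of them (4.05% lower and 4.82% higher). Among the 9 genes, 5 means were higher and 4 lower in the transgenic group, and the median difference was 0.05 beside -0.01 over all probe sets. In the 8 genes other than Thbs4 the difference was at most 0.23 in size, and 63% of all probe sets differed by less than that.

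**Figure D1:**
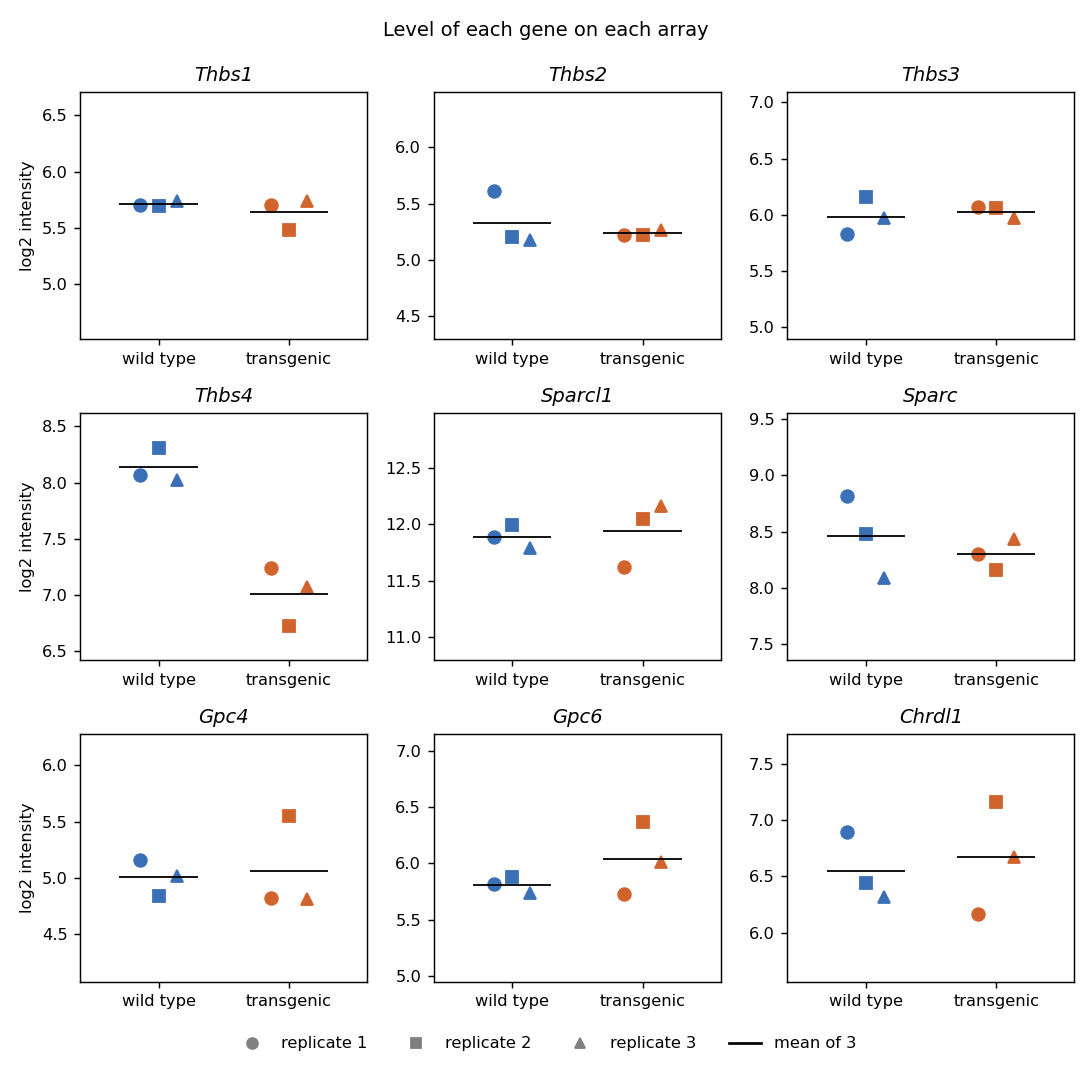
Log2 intensity of each of the 9 genes (vertical axis, with the same span in every panel) on each of the 3 wild type and 3 transgenic arrays; a symbol is an array and a line the mean of 3. Thbs4 lies between 8.02 and 8.31 on the wild type arrays and between 6.73 and 7.24 on the transgenic arrays, and in every other panel the groups overlap.

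Thbs4 encodes a thrombospondin that forms pentamers, made in the brain by astrocytes among other cells, including those of the subventricular zone. Its values were 8.07, 8.31 and 8.02 on the wild type arrays and 7.24, 6.73 and 7.07 on the transgenic arrays, in the order of replicates 1, 2 and 3, which holds for every such series below. In deposited intensity units these were 269, 318 and 260 against 151, 106 and 135. A gap of 0.78 separated the lowest wild type array from the highest transgenic array, wider than the spread within either group. The means were 8.14 ± 0.16 (SD, n = 3) and 7.01 ± 0.26, a difference of -1.12 (SE 0.18), or 2.18-fold lower. Of the 22180 genes, 40 (0.18%), Thbs4 included, had a difference at least this far below 0. Since Thbs4 was chosen for its low transgenic values, this rank and the gap describe it and do not measure how unusual it is. With each array left out in turn the difference lay between -1.24 and -0.98, the latter without transgenic replicate 2. In whole lesions, fewer cells making a transcript and less of it per cell cannot be told apart, here and for every gene below.

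Levels of cell type markers were set beside Thbs4 on the same arrays. The 8 astrocyte markers averaged 8.48, 8.29 and 8.26 in wild type and 7.75, 8.31 and 8.26 in transgenic lesions. The order of the transgenic arrays was not the same: transgenic replicate 1, with the lowest astrocyte mean, had the highest Thbs4 of its group, and transgenic replicate 2, whose astrocyte mean lay within the wild type range, had the lowest. In this list 6 of 8 means were lower in transgenic lesions. Sox9, a transcription factor of astrocytes, and Gja1, their main connexin, were lower without overlap, 2 of 8 beside 7.6% of all probe sets. Gfap, the filament gene that defines the targeted cells, stood at 9.83, 9.18 and 9.09 in wild type and at 8.91, 8.82 and 9.24 in transgenic lesions. Its groups overlapped, and its difference was -0.37 (SE 0.23), beside -1.12 for Thbs4. The part of astrocyte content in the Thbs4 difference was not tested.

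Markers of other cell types were compared in the same way, and 0 of them passed an adjusted p of 0.05 in limma. A limma unadjusted p under 0.05 was found for 8 of 8 oligodendrocyte, 3 of 7 subventricular and 2 of 8 fibroblast markers. It was also found for 1 of 8 astrocyte, 2 of 4 striatal neuron and 1 of 7 cortical neuron markers, beside 8.87% of all probe sets. Of all probe sets, 7.6% were lower and 8.54% higher without overlap. All 8 oligodendrocyte markers were lower without overlap, and their mean was 9.81 to 10.25 in the wild type group and 8.82 to 9.26 in the transgenic group. All 7 measured markers of subventricular neuroblasts were lower, 2 of them without overlap, and their mean was 6.41 to 7.11 against 6.11 to 6.36, also without overlap. The microglia and macrophage mean, lower in 6 of 7 markers, spanned 7.72 to 9.09 against 7.64 to 8.21. Endothelial means (5.71 to 5.81 against 5.52 to 5.95) and mural means (6.14 to 6.34 against 6.06 to 6.28) overlapped. The fibroblast mean spanned 6.02 to 6.53 against 6.48 to 6.51, with 4 of 8 markers higher, 4 lower and a median difference of 0.02. Of these, Dcn and Lum, both matrix proteoglycans, were higher without overlap. The part of these cell types in the Thbs4 difference was not tested.

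Markers of brain region and sex also differed between arrays, and Thbs4 was read in subsets of arrays alike in striatal markers or in sex. The 4 measured striatal neuron markers averaged 7.87 and 8.48 in wild type replicates 2 and 3 but 6.03 in wild type replicate 1, near the transgenic 5.95 to 6.31. Cortical markers averaged 7.88 to 7.94 in the wild type group and 7.89 to 8.60 in the transgenic group. In wild type replicate 1, which had low striatal markers like the transgenic arrays, Thbs4 was 8.07, and the transgenic mean lay 1.06 below it on the log2 scale (difference -1.06). Among the 4 female arrays the difference of Thbs4 was -1.41, resting on transgenic replicate 2 alone within its group. Both subsets were added after seeing the data, have a group of 1 array each and are given as values without a test. Wild type replicate 1 was unlike the transgenic arrays in its oligodendrocyte mean, 10.25 against 8.82 to 9.26. The part of region and of sex in the Thbs4 difference was not tested.

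**Figure D2:**
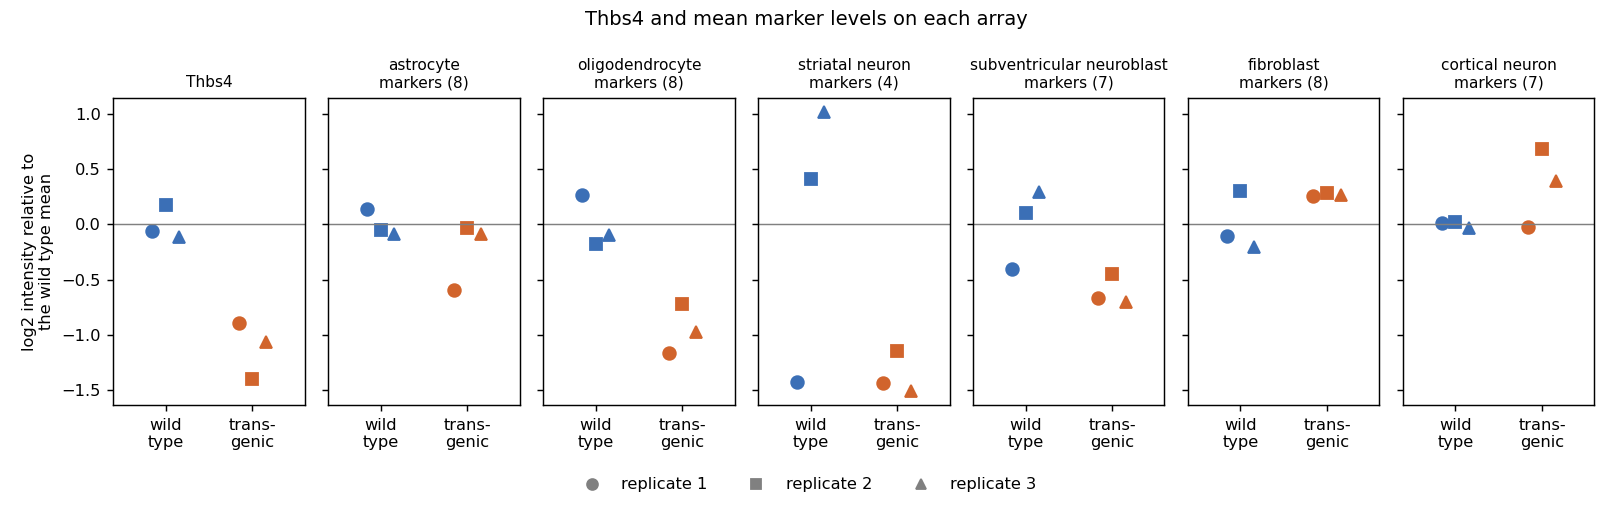
Thbs4 and the mean of 6 marker lists on each array, as log2 intensity relative to the wild type mean of each panel (vertical axis); a symbol is an array, and the number of markers is in parentheses. Thbs4, the oligodendrocyte markers and, by a narrow gap, the subventricular markers separate the groups. The astrocyte markers are low only in transgenic replicate 1, and the striatal markers are high only in wild type replicates 2 and 3.

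The 3 further thrombospondins stood nearer the array medians, and no detection calls were available. Thbs1 and Thbs2 encode the trimeric thrombospondins that astrocytes make early in life, and Thbs3 encodes another pentameric form. Thbs1 stood at 5.70, 5.69 and 5.74 in wild type and at 5.70, 5.48 and 5.74 in transgenic lesions. Apart from transgenic replicate 2 these values were nearly level, and the difference was -0.07 (95% confidence interval -0.39 to 0.26, limma adjusted p 0.923).

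Thbs2 stood at 5.61, 5.20 and 5.18 in wild type and at 5.22, 5.22 and 5.27 in transgenic lesions. Wild type replicate 1 was the high array, and the difference was -0.09 (-0.47 to 0.29, limma adjusted p 0.911) with it and 0.05 without it. Wild type replicate 1 also had the highest microglia and macrophage mean, 9.09; the part of those cells in the Thbs2 value was not tested. Thbs3 stood at 5.83, 6.16 and 5.97 against 6.07, 6.06 and 5.97. Its transgenic values all fell within the wild type range, and the difference was 0.05 (-0.30 to 0.39, limma adjusted p 0.952). In fold terms the intervals allow transgenic levels of 0.76 to 1.20 times wild type for Thbs1, 0.72 to 1.23 for Thbs2 and 0.81 to 1.31 for Thbs3. Whether Thbs4 differed from its relatives in its response was not tested.

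**Figure D3:**
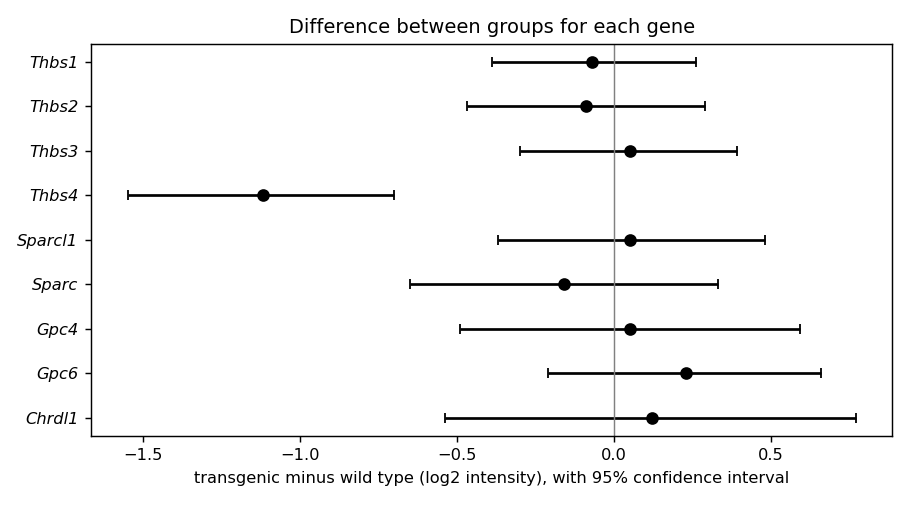
Transgenic minus wild type difference in log2 intensity (horizontal axis) for each of the 9 genes, with its 95% confidence interval from the limma fit of 3 against 3 arrays. The interval of Thbs4 spans -1.55 to -0.70 and describes its spread only, since the gene was chosen for this difference; the other 8 intervals span 0.

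Sparcl1, the secreted bridge across the synapse, stood at 11.89, 11.99 and 11.79 in wild type and at 11.62, 12.05 and 12.16 in transgenic lesions. The transgenic arrays thus enclosed the wild type arrays, with replicate 1 below and replicates 2 and 3 above all of them. The difference was 0.05 (SE 0.18, 95% confidence interval -0.37 to 0.48, limma adjusted p 0.957), which allows 0.77 to 1.39 times the wild type level. Transgenic replicate 1, the low array, also had the lowest astrocyte mean, 7.75; the part of astrocyte content was not tested. Without it the Sparcl1 groups did not overlap, as was so for 33.1% of all probe sets without that array. The Sparcl1 difference was then 0.22 and its limma adjusted p was 0.516.

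Sparc, made by microglia and vessel cells as well as astrocytes, stood at 8.82, 8.48 and 8.09 in wild type and at 8.30, 8.16 and 8.43 in transgenic lesions. The wild type arrays held both the highest and the lowest value. Wild type replicate 1, the highest array, also had the highest microglia and macrophage mean, 9.09, and wild type replicate 3 the lowest of its group, 7.72; the part of those cells was not tested. The difference was -0.16 (SE 0.21, interval -0.65 to 0.33, limma adjusted p 0.864). Leaving out wild type replicate 1 gave 0.01. Leaving out wild type replicate 3 gave -0.35, with groups that did not overlap, as was so for 25.6% of all probe sets without that array.

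Gpc6 stood at 5.82, 5.88 and 5.74 in wild type and at 5.73, 6.37 and 6.01 in transgenic lesions. Transgenic replicates 2 and 3 lay above every wild type array and transgenic replicate 1 just below them. The difference was 0.23 (SE 0.19, interval -0.21 to 0.66, limma adjusted p 0.776), the largest of the 8 genes other than Thbs4. It was 0.06 without transgenic replicate 2 and 0.38 (limma adjusted p 0.404) without transgenic replicate 1. In the latter case the groups did not overlap, beside 33.1% of all probe sets. With sex as a covariate it was 0.55 (limma adjusted p 0.178), again resting on transgenic replicate 2.

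Gpc4 stood at 5.16, 4.84 and 5.02 in wild type and at 4.82, 5.55 and 4.81 in transgenic lesions. Transgenic replicate 2 was the highest array and transgenic replicates 1 and 3 the lowest. The difference was 0.05 (SE 0.23, interval -0.49 to 0.59, limma adjusted p 0.971) and turned to -0.19 without transgenic replicate 2. Gpc4 lies on the X chromosome, per the RefSeq annotation of GRCm38.p6. Its lowest arrays, at 4.82 and 4.81, were those with Y-linked transcripts, and wild type replicate 2, with a female pattern, was close at 4.84. The part of sex in these levels was not tested. With sex as a covariate the Gpc4 difference was 0.54 (limma adjusted p 0.191). That fit rests on transgenic replicate 2 as the only female transgenic array. The Gpc4 level was below the median of its own array on every array except transgenic replicate 2.

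Chrdl1, also X-linked, varied most among the 8 genes, over a range of 0.99. It stood at 6.89, 6.44 and 6.32 in wild type and at 6.17, 7.16 and 6.67 in transgenic lesions. Transgenic lesions held both the lowest and the highest level, in replicates 1 and 2. The difference was 0.12 (SE 0.28, interval -0.54 to 0.77, limma adjusted p 0.934), and it was 0.37 without transgenic replicate 1 and -0.13 without transgenic replicate 2. With sex as a covariate it was 0.61 (limma adjusted p 0.302). Gpc4, Gpc6 and Chrdl1 were 3 of 9 genes with their highest level in transgenic replicate 2, beside 26.4% of all probe sets. Sparcl1, Gpc6 and Chrdl1 were 3 of 9 with their lowest level in transgenic replicate 1, beside 22.3%.

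**Figure D4:**
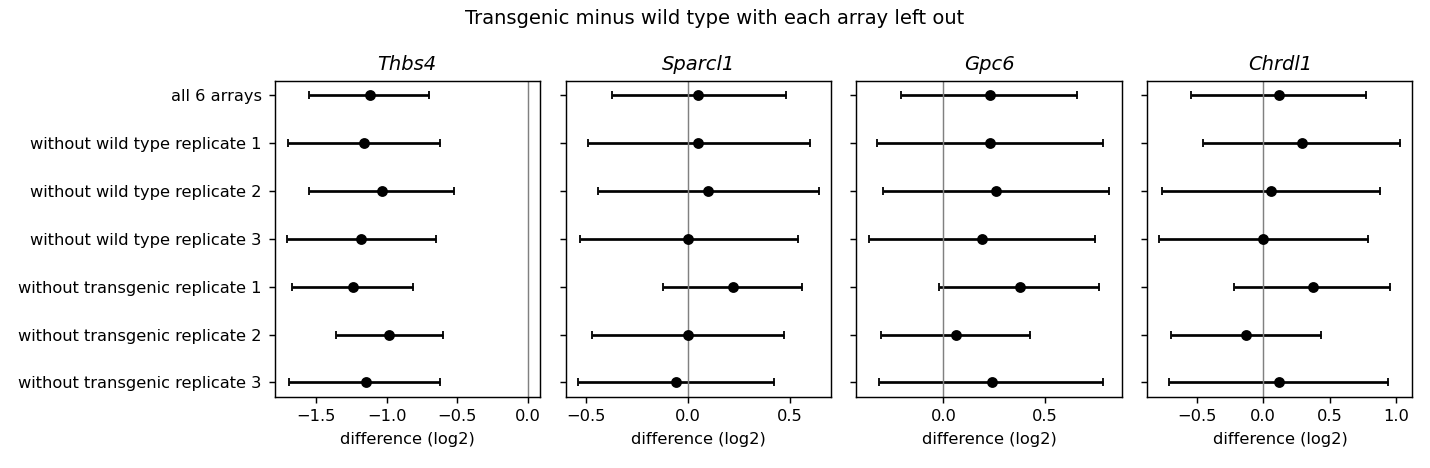
Transgenic minus wild type difference in log2 intensity (horizontal axes, each with its own scale) with 95% confidence intervals for Thbs4, Sparcl1, Gpc6 and Chrdl1, from all 6 arrays and with each array left out. Thbs4 stays between -1.24 and -0.98, whereas Chrdl1 moves from -0.13 without transgenic replicate 2 to 0.37 without transgenic replicate 1.

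The genes whose profile over the 6 arrays was nearest to that of Thbs4, by the root mean square difference of the centred log2 levels, were Gm15097 (0.146), Ssxb6 (0.187), Mir297a-4 (0.189) and Arhgap11a (0.198). Gm15097, Ssxb6 and Mir297a-4 belong to multigene or repeated families whose copies can share probes, so their values are uncertain. Arhgap11a, a GTPase-activating protein, stood at 6.09, 5.81 and 5.79 in wild type and at 5.31, 4.61 and 5.09 in transgenic lesions. Its array of lowest level, transgenic replicate 2, was also that of Thbs4, which a choice by likeness of profile favours. Nearest to Chrdl1 were A730017L22Rik (0.0572), Zfp935 (0.0581), Mirlet7f-1 (0.0738) and Ranbp3l (0.0804), and nearest to Gpc4 were Ddx51 (0.0325), Shisa8 (0.0463), Utp23 (0.0533) and Ints9 (0.0605). All 8 shared with Chrdl1 and Gpc4 a highest level in transgenic replicate 2. This follows from choosing them by likeness of profile and is no separate result.

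Partners and relatives of these proteins were read from 9 lists with 116 different genes, of which 111 were measured. In limma 0 of them passed an adjusted p of 0.05. At an unadjusted p under 0.05 there were 5 lower and 3 higher, 7.21% of the genes beside 8.87% of all probe sets, and the groups of 19 genes (17.1%, beside 16.1%) did not overlap. These shares are near those of all probe sets.

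Receptors of thrombospondins had a median difference of -0.34 (all probe sets, -0.01), with 11 of 17 lower, and 0 passed even an unadjusted p of 0.05. Itga6, Lrp1, Itgb1 and Scarb2 were lower with groups that did not overlap, 4 of 17 genes beside 7.6% of all probe sets. Itga6 and Itgb1 encode integrin chains, Lrp1 a large endocytic receptor and Scarb2 a lysosomal membrane protein. Itga6 stood at 7.26, 6.59 and 6.60 against 6.32, 6.23 and 6.54, a difference of -0.45 (SE 0.22, limma adjusted p 0.602). All 4 were highest in wild type replicate 1, the array with the highest microglia and macrophage mean; the part of those cells was not tested.

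Cacna2d1, the calcium channel subunit through which thrombospondins act on synapses, stood at 8.01, 8.02 and 7.89 in wild type and at 7.86, 8.64 and 8.62 in transgenic lesions. Transgenic replicates 2 and 3 were above and replicate 1 below the wild type arrays, the same placement as for Sparcl1, with a difference of 0.40 (SE 0.23, limma adjusted p 0.669). Cd47, the receptor bound by the carboxyl end of thrombospondin 1, spanned 9.58 to 9.75 over all arrays and differed by -0.04 (SE 0.13, limma adjusted p 0.963). Cd36, a scavenger receptor that binds thrombospondin repeats, stood at 5.48, 8.25 and 4.52 against 6.13, 4.23 and 4.56. Its value in wild type replicate 2 lay far above the rest, and the difference of -1.11 (SE 0.94, limma adjusted p 0.783) was smaller than the wild type SD of 1.94.

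Among 21 proteins with thrombospondin repeats and near relatives, 14 had lower and 7 higher means, with a median difference of -0.06. Rspo3, a secreted enhancer of Wnt signalling, stood at 6.27, 6.22 and 5.96 in wild type and at 6.70, 6.94 and 7.02 in transgenic lesions, a difference of 0.74 (SE 0.16, limma adjusted p 0.389). Adamts4, a protease that cuts matrix proteoglycans, stood at 7.10, 6.83 and 6.85 against 5.93, 6.34 and 6.61, a difference of -0.63 (SE 0.20, limma adjusted p 0.488). The groups of both did not overlap, in opposite directions. Adamts1, a related protease, was also lower without overlap (-0.35), and Sema5b, a guidance protein, differed by -0.44 with overlap.

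Relatives of Sparcl1 and its synaptic partners differed in both directions, and 0 passed an adjusted or unadjusted p of 0.05 in limma. Of 6 further SPARC family genes, 4 had higher means, and Smoc2 was higher without overlap by 0.22 (SE 0.14, limma adjusted p 0.705). Spock3 differed by -0.64, Fstl1 by 0.30 and Smoc1 by -0.15. The neuroligin genes Nlgn1, Nlgn2 and Nlgn3, whose products Sparcl1 links across the synapse, differed by 0.32, 0.29 and -0.16, and Mdga2, an inhibitor of neuroligins, by -0.09. Of this list of 5 measured partners, 0 had groups that did not overlap.

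Of the glypicans outside the 9 genes, Gpc2, found mainly in immature neurons, was lower without overlap by -0.30 and Gpc5 higher without overlap by 0.14 (SE 0.13); Gpc3 differed by 0.11 and Gpc1 by 0.03. Ptprs, the receptor phosphatase that binds Gpc4, differed by 0.06 (SE 0.21, limma adjusted p 0.961). Gria1, the AMPA receptor subunit tied to Gpc4 and Gpc6, stood at 9.26, 9.37 and 9.20 in wild type and at 8.53, 9.09 and 9.02 in transgenic lesions, a difference of -0.39 (SE 0.18, limma adjusted p 0.597). Gria2, the subunit tied to Chrdl1, differed by -0.04 (SE 0.20), its values of 9.96 to 10.63 in transgenic lesions enclosing those of wild type. Lrrtm4, a postsynaptic receptor of glypicans, differed by 0.37, Ptprf by -0.20 and Nptx2, a pentraxin that clusters AMPA receptors, by 0.10. Of 11 measured partners, Gria1 alone had groups that did not overlap.

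The enzymes that build and trim heparan sulfate, the sugar chain carried by glypicans, had 10 higher and 9 lower means in 19 measured genes. Ext1, which lengthens the chain, was higher without overlap by 0.36 (SE 0.14, limma adjusted p 0.522), and Hs6st2, a sulfotransferase, lower without overlap by -0.42 (SE 0.16, limma adjusted p 0.527). Hs3st2, another sulfotransferase, was higher without overlap by 0.34, and Extl2 differed by 0.33. A list of 9 chordin relatives and other regulators of bone morphogenetic proteins, not all of them antagonists, was also read. Chrd differed by 0.46 (SE 0.19, limma adjusted p 0.561), Nog by 0.34, Kcp by -0.19 and Twsg1 by -0.12. The groups overlapped in all 9.

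Other astrocyte factors that act on synapses included genes with groups that did not overlap in 5 of 20 cases, beside 16.1% of all probe sets, 4 of them lower, beside 7.6%. Il33, a cytokine that prompts microglia to engulf synapses, stood at 8.39, 7.66 and 7.57 in wild type and at 6.98, 7.20 and 7.05 in transgenic lesions, a difference of -0.79 (SE 0.23, limma adjusted p 0.47). Oligodendrocytes also make Il33, and their markers were lower on the same arrays; their part in the Il33 value was not tested. Megf10, a receptor by which astrocytes engulf synapses, stood at 6.63, 6.42 and 6.81 against 5.74, 6.15 and 6.08, a difference of -0.63 (SE 0.18, limma adjusted p 0.453). Hepacam, an adhesion protein of astrocytes, differed by -0.62 (SE 0.25, limma adjusted p 0.552), with its lowest value, 7.63, in transgenic replicate 1. Bdnf, a neurotrophin, was higher without overlap by 0.34 (SE 0.15, limma adjusted p 0.567).

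**Figure D5:**
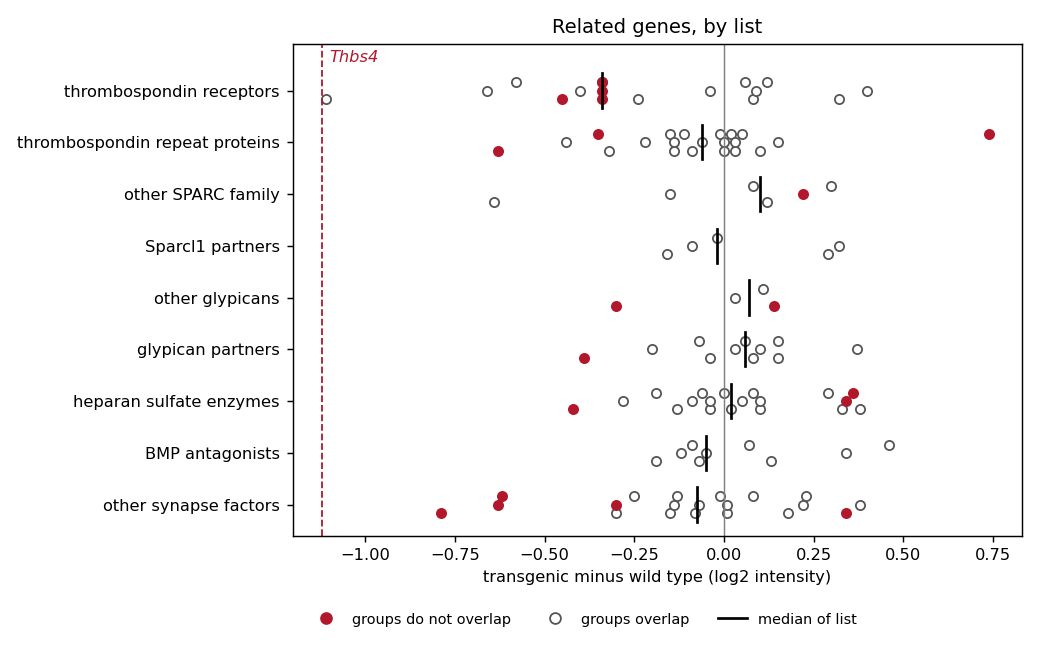
Transgenic minus wild type difference in log2 intensity (horizontal axis) for the measured genes of 9 lists of relatives and partners; a filled point is a gene whose groups do not overlap, a black line the median of the list, and the dashed line Thbs4 at -1.12. The median of the thrombospondin receptors is -0.34 and the medians of the other 8 lists lie between -0.07 and 0.10. The list labelled BMP antagonists holds regulators of bone morphogenetic proteins, not all of them antagonists.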

How the data were processed

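The deposited intensities are RMA values, and the submitters' processing notes name Affymetrix Expression Console as the tool. Its version, the genome build and any scan dates were not given in the sources used here. RMA corrects background, equalises arrays and summarises probe sets. The authors left these intensities linear (3.73 to 15793), so log2 was taken here with no pseudocount. Genes were named from the 23521 of 41345 probe sets with 1 symbol in the platform annotation, taking the probe set with the highest mean; members' symbols matched RefSeq. Groups came from the titles, with 0 unmapped columns.

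All probe sets entered a limma fit (version 3.58.1, R 4.3.3; lmFit, eBayes, two-sided, Benjamini-Hochberg over all probe sets, threshold 0.05). It was also run on simulated arrays with 41345 probe sets, whose noise was independent and, within a probe set, equal on all arrays. There it called 34 of 100 with a true log2 difference of 1, 94 of 100 with one of 2, and 6 unchanged ones. The median SD of the real arrays was unequal, 0.26 in transgenic and 0.15 in wild type lesions, so these rates need not hold for them. SDs are over 3 arrays. Precision is limited by having 6 arrays, and the median SE was 0.19.

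Members and lists were chosen with earlier results of these data known. All 9 members are named; of each list of partners up to 4 genes with the smallest unadjusted p are named, plus Cd36, Cd47, Cacna2d1, Ptprs and Nlgn1 (1 further gene is not reported here); the 4 nearest profiles are given for Thbs4 and the 2 other members with the widest range. Gria2 and the marker genes named were chosen after their values were seen. Alternatives were quantile normalization, median centring, leaving out dim probe sets, array weights, a replicate block, sex as a covariate, no moderation of variances and each array left out; 2 subsets of arrays were added after seeing the data.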

Additional observations from a re-analysis of the deposited data

How the results depend on the processing

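Thbs4 was lower in every alternative. Its difference was -1.11 after quantile normalization, -1.07 after median centring, -1.09 with array weights, -1.41 with sex as a covariate and -1.12 with the replicate block. With array weights and with sex as a covariate, 1 of the 9 members, Thbs4, passed an adjusted p of 0.05 in limma. This is no support, since Thbs4 was chosen for its difference on these arrays. Both settings also lean on 1 transgenic array, replicate 3 in the first and replicate 2 in the second. With sex as a covariate, and equally in the female arrays alone, Gpc4 was 0.54, Gpc6 0.55 and Chrdl1 0.61. With the covariate, 3 of the 9 members had a limma unadjusted p under 0.05, beside 20.8% of all probe sets. Sparcl1 was 0.24 with array weights. Thbs2 and Gpc4 were among the dim probe sets and had no value when those were left out.

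Differences near 0 changed sign. With array weights they were 0.03 for Thbs1, -0.04 for Thbs3 and -0.16 for Gpc4; in wild type replicate 1 against the transgenic arrays they were -0.10 for Gpc4 and -0.22 for Chrdl1. With each array left out in turn the ranges were -0.12 to 0.01 for Thbs1, -0.17 to 0.05 for Thbs2, -0.03 to 0.13 for Thbs3, -0.06 to 0.22 for Sparcl1, -0.35 to 0.01 for Sparc, -0.19 to 0.18 for Gpc4 and -0.13 to 0.37 for Chrdl1.

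Probe sets past an adjusted p of 0.05 numbered 2611 with array weights, 1481 with sex as a covariate, 1843 in the female arrays alone and 0 to 335 with each array left out, the last without transgenic replicate 2. At an unadjusted p under 0.05 there were 10793 with array weights, 8604 with sex as a covariate, 2243 without dim probe sets, 10602 in the female arrays, 1470 in wild type replicate 1 against the transgenic arrays and 2031 to 5168 with an array left out. Groups did not overlap for 3933 probe sets without the dim ones, 19% of those left, and for 1 of the 7 members left. In the female arrays this was so for 29594 probe sets (71.6%) and 6 of 9 members. In wild type replicate 1 against the transgenic arrays it was so for 19043 (46.1%) and 4 of 9 members. With an array left out it was so for 9251 to 13666 (22.4% to 33.1%) and 1 to 3 of 9 members. With fewer arrays, groups overlap less often. Deviations of arrays with the same replicate number correlated at 0.0122, -0.0977 and -0.0682, and 0 of 6 arrays correlated best with their own number. No pairing by number was detected, and 3 arrays per group cannot show that there was none. With the replicate block 2999 probe sets had a limma unadjusted p under 0.05 and 0 an adjusted one.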

Other observations

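Cd36 and collagen I were high together in wild type replicate 2. Cd36 stood at 8.25 there and between 4.23 and 6.13 on the other 5 arrays. Col1a1, a chain of collagen I, stood at 7.96 there and between 6.46 and 6.92 elsewhere, and Col1a2, the other chain, at 8.76 against 6.48 to 8.05. Not all fibroblast markers were high on that array: Lum, at 4.55, was at its lowest there. Thbs4 was highest on that array, at 8.31, as were 12% of all probe sets. Sparc was not, at 8.48 against 8.82 in wild type replicate 1.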
